A study of Mus musculus with 12 samples.

Results

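Metallothioneins are small cysteine-rich proteins that bind zinc, copper and cadmium, and the array named 3 of their genes that are studied here, Mt1, Mt2 and Mt3. They were taken by gene symbol from the platform annotation, which gave 1 probe per gene, 3 probes of 46632 on the array, and all 3 were among the 9526 genes tested of 17711 named. RNA of C57Bl/6 mouse cells was measured on 12 Illumina bead arrays, 3 per group, and the series states that the 3 of a group were independent biological replicates. Ependymal cells of adult mice came from the wall of the lateral ventricle (LVW) or from the spinal cord (SC), and in both the sort kept cells carrying CD133 and CD24 but neither CD45 nor CD34. Radial glia (RG) came from forebrain at embryonic day 14.5, sorted for CD133 without CD24, CD45 or CD34. The neurosphere (NSP) group was grown in culture from SC ependymal cells of adult mice and was not sorted. RG thus differed from both ependymal groups in age as well as in CD24, and from SC and NSP also in region, forebrain against spinal cord. NSP differed from SC in culture and in the lack of a sort. From LVW, NSP differed in region as well.

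In mammals Mt1 and Mt2 are expressed in many tissues, store and buffer zinc, and are induced by metals, glucocorticoids and oxidative stress. The zinc-sensing factor MTF1 switches them on by binding metal response elements in their promoters. Mt3 is found mainly in the nervous system, was first described as a growth inhibitory factor of neurons, and responds little to metals. In the adult brain, astrocytes and ependymal cells are known sources of metallothionein.

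The 3 genes are neighbours on chromosome 8, in the order Mt3, Mt2, Mt1. Their promoter windows, from 250 bases before to 50 after the start used in a RefSeq table (GRCm38.p6, all on the plus strand), are shown because 2 of the 3 genes are known targets of MTF1 and all 3 were lowest in the same group. Capitals mark matches to the core of the metal response element, searched on both strands as TGCACNC or TGCGCNC.
Mt1, chr8:94178839-94179138: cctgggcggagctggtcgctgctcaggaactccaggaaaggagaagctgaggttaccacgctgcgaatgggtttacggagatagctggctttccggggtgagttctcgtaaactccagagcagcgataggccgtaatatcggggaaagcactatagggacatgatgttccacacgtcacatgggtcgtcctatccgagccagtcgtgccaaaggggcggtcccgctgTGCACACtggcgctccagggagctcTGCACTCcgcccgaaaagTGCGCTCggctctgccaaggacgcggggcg
Mt2, chr8:94172368-94172667: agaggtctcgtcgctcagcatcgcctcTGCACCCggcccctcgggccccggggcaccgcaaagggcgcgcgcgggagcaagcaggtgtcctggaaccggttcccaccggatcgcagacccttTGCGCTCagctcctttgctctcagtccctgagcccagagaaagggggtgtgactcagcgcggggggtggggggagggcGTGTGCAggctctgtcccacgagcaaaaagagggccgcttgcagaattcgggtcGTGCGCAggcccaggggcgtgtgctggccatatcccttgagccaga
Mt3, chr8:94152357-94152656: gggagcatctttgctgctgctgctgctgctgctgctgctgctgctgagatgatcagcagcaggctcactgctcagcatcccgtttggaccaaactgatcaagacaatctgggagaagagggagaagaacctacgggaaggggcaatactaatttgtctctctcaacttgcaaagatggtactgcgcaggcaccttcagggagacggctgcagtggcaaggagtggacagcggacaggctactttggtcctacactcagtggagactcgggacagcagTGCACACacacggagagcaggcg
The window of Mt1 held 3 matches, that of Mt2 held 4 and that of Mt3 held 1. The start that the table uses for Mt1 lies inside the span that a RefSeq gene table gives for this gene, so its window may not be the promoter used in these cells, and its matches are those of this window only. Of 32851 windows of the same length in the table, 25.7% held at least 1 match and 1.97% held 3 or more. The window of Mt2 also held the antioxidant response element core, TGACNNNGC, from base -79 to base -71 before the start, clear of the other matches. This core was in 12.4% of the windows. No match to the E-box CACGTG, found in 7.15% of the windows, or to the full glucocorticoid response element, found in 0.00913%, lay in the 3 windows. These matches describe letters in the windows and were not tested as binding sites.

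Each array detected between 10742 and 16175 probes at a detection p-value under 0.01, and mean raw signal lay between 169.5 and 654. Neurosphere replicate 3 had the highest count and mean. Of the 9 measured markers in a list of 10 for ependymal cells, LVW arrays detected all 9, SC arrays 7 to 9, RG arrays 6 and NSP arrays 3 to 7. Foxj1, the master regulator of motile cilia, had a mean log2 level of 8.75 ± 0.78 (SD, n = 3) in LVW and 9.26 ± 0.22 in SC, against 6.15 ± 0.37 in RG and 5.58 ± 0.43 in NSP. Of 10 radial glia markers, RG arrays detected 8 or 9, NSP arrays 7 or 8, LVW arrays 4 or 5 and SC arrays 3 or 4. Hes5, Neurog2, Eomes and Tnc were detected on all 3 RG arrays and on 0 LVW or SC arrays. Fabp7, however, was detected on 0 RG arrays and on all 3 of NSP, and Sox2 on 1 RG array. Pax6 was at 11.55 in SC and 11.46 in RG. In RG, Foxj1 and the cilium genes Rsph1 (9.33 ± 0.64) and Tekt1 (9.17 ± 0.98) were also detected on all 3 arrays. The cilium gene Dnaic1 was detected on them too, at 5.82 against 13.29 in LVW and 13.23 in SC. The cilium gene Dnah5 and the ependymal markers S100b and Cd24a were detected on 0 RG arrays. Some cilium genes were thus not absent from the cells labelled radial glia. Since these are sums over many cells, fewer cells that express a gene and less RNA per cell cannot be told apart.

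Mean metallothionein levels were lowest in embryonic radial glia for all 3 genes. Each was called lower there than in the other groups, except Mt2 against neurospheres, where the groups overlapped and the difference was not called. None of the 3 was called between the 2 ependymal groups. In neurospheres Mt2 was lower than in either ependymal group, Mt3 was lower than in LVW, and Mt1 was called against neither. All values below are log2 normalised signals, and a change is a difference between group means with its standard error (SE) from a linear model of the 12 arrays (limma). A change was called when its p-value, adjusted over all 9526 genes by Benjamini-Hochberg, was under 0.05.

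Mt1 had levels of 14.26, 14.30 and 14.20 on LVW replicates 1, 2 and 3. On the SC arrays it had 14.22, 14.39 and 14.33. The RG arrays gave 12.69, 13.22 and 12.60, and the NSP arrays 14.30, 13.94 and 14.39. All 9 adult and cultured arrays were thus above all 3 RG arrays, while LVW, SC and NSP overlapped. Raw signal was 22183 to 22721 in LVW, 11460 to 12831 in SC, 6751 to 10725 in RG and 11292 to 51464 in NSP. Those values lay between 69.8% and 92.1% of the array's highest signal in LVW, SC and NSP, and between 25.4% and 40.6% in RG. Quantile normalisation gives equal ranks equal values, as LVW replicate 2 and NSP replicate 1 show at 14.30.

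Mt2 had levels of 11.90, 12.13 and 11.22 on the LVW arrays and 11.81, 11.91 and 12.17 on the SC arrays. In RG it had 7.16, 8.16 and 7.42. The NSP arrays gave 9.72, 7.83 and 9.70. Every ependymal array was above every RG and NSP array, and NSP replicate 2 lay within the range of RG. The detection p-value was 0 on all 12 arrays.

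Mt3 had levels of 9.997, 9.82 and 8.49 on the LVW arrays and 8.61, 8.56 and 8.51 on the SC arrays. The RG arrays gave 5.58, 6.10 and 5.63 and the NSP arrays 8.41, 6.59 and 8.24. LVW replicate 3 was at the level of SC, and the other LVW arrays were above it. The RG values were close to the limit of detection, with raw signals of 41.9 to 62.1 and detection p-values of 0.00437 to 0.00873, so the size of a change against RG depends on the background correction.

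**Figure D1:**
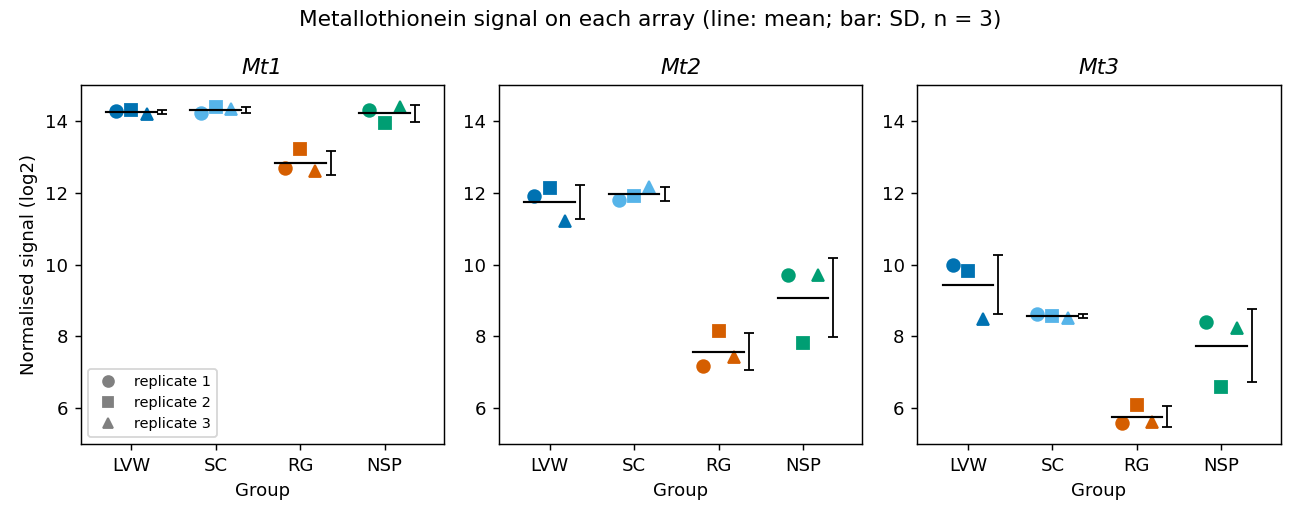
Normalised log2 signal of Mt1, Mt2 and Mt3 (vertical axis) on each of the 12 arrays by group, with the group mean as a line and the SD as a bar (n = 3). RG is lowest for each gene on average, and NSP replicate 2 (square) lies below the other NSP arrays, most clearly for Mt2 and Mt3.

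The comparison of adult ependymal cells with radial glia asks how these cells differ from the embryonic cells that also carry CD133. All 3 genes were higher in LVW than in RG, where 16.7% of all genes tested were called higher. Mt2 was higher by 4.17 ± 0.50 (adjusted p = 5.68e-05 in limma), which is 18-fold with a 95% interval of 8.39 to 38.6. Mt3 was higher by 3.67 ± 0.51 (adjusted p = 0.000174), or 12.7-fold (5.86 to 27.5). Mt1 was higher by 1.42 ± 0.27 (adjusted p = 0.00153), or 2.68-fold (1.78 to 4.03). Of all genes tested, 5.23% had a larger absolute change than Mt2, 7.20% a larger one than Mt3 and 34.7% a larger one than Mt1.

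In SC all 3 genes were again higher than in RG, against 14.8% of all genes. Mt2 was higher by 4.38 ± 0.50 (adjusted p = 4.44e-05 in limma), or 20.8-fold (9.72 to 44.7). Mt3 was higher by 2.79 ± 0.51 (adjusted p = 0.00135), or 6.91-fold (3.19 to 14.98). Mt1 was higher by 1.48 ± 0.27 (adjusted p = 0.00135), or 2.78-fold (1.85 to 4.19). These comparisons share the RG arrays. In the authors' own normalised values the Mt3 changes were smaller, 2.32 in LVW and 1.57 in SC, and were still called. With each array scaled to the median of all probes, Mt1 was no longer called in LVW (1.09, adjusted p = 0.124) or in SC (0.84, adjusted p = 0.224). Under it, the median over all genes of the SC and RG difference was -0.80 in place of -0.14.

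Between the regions, none of the 3 genes was called in SC against LVW, where 8.04% of all genes were. Mt1 differed by 0.056 ± 0.27 (95% interval -0.53 to 0.65, adjusted p = 0.945 in limma) and Mt2 by 0.21 ± 0.50 (-0.89 to 1.31, adjusted p = 0.866). Their signs turned under scaling to the median of all probes. Mt3 had a lower mean in SC by 0.88 ± 0.51 (interval of the change -1.99 to 0.24, adjusted p = 0.354), and the groups overlapped through LVW replicate 3 alone. Differences of these sizes were within the error of 3 arrays per group.

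**Figure D2:**
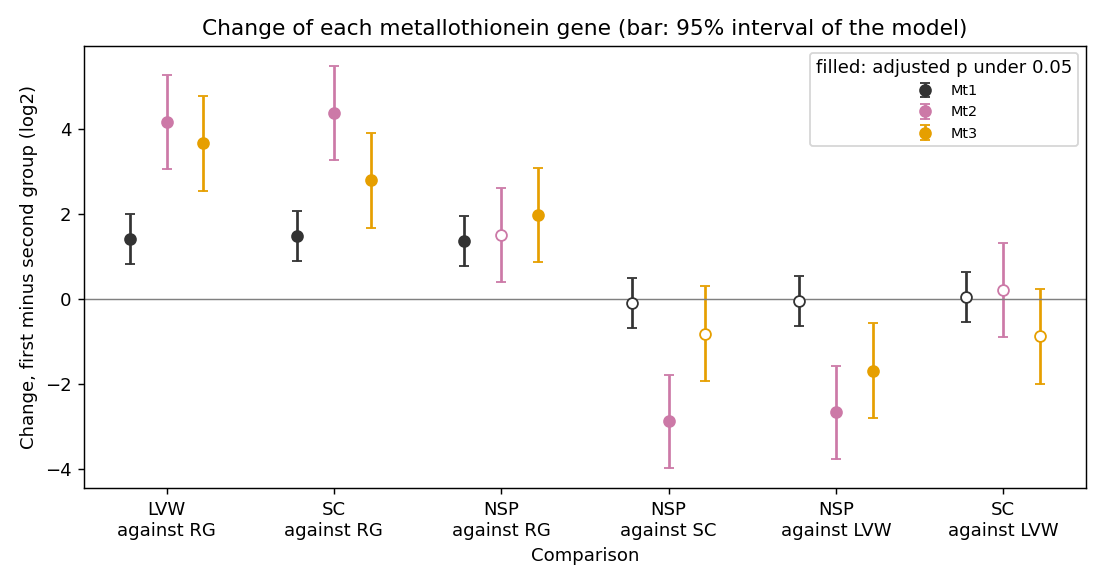
Change of each gene (vertical axis, log2, first minus second group) in the 6 comparisons, with the 95% interval of the model, where filled points were called. Against RG, 8 of 9 points are filled, and Mt2 has the lowest point in both comparisons of NSP with ependymal cells.

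The comparison of neurospheres with SC ependymal cells sets unsorted cultured cells against sorted cells of the kind they were grown from. Arrays of the groups are not stated to be paired. Mt2 was the only 1 of the 3 to be called, against 14.7% of all genes called lower. It was lower in NSP by 2.88 ± 0.50 (adjusted p = 0.0012 in limma), or 7.36-fold (3.43 to 15.8). Mt3 had a mean lower by 0.81 ± 0.51, which was not called (interval of the change -1.93 to 0.30, adjusted p = 0.258), although every NSP array was below every SC array. Without NSP replicate 2 the Mt3 change was -0.23 (adjusted p = 0.767). Mt1 differed by -0.10 ± 0.27 (-0.69 to 0.49, adjusted p = 0.82), with a sign that turned under both median scalings. Without NSP replicate 2 Mt2 was still lower, by 2.23, and was called.

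Against LVW ependymal cells, 2 of the 3 genes were lower in NSP, where 16.4% of all genes were called lower. Mt2 was lower by 2.67 ± 0.50 (adjusted p = 0.00169 in limma), or 6.35-fold (2.96 to 13.6). Mt3 was lower by 1.69 ± 0.51 (adjusted p = 0.0241), or 3.23-fold (1.49 to 6.99). The Mt3 call was lost in a fit to the 6 arrays compared (adjusted p = 0.117), with no probe filter (0.0552) and under scaling to the median of all probes (0.0622). It was also lost without LVW replicate 1 (-1.40, adjusted p = 0.0821), LVW replicate 2 (-1.503, 0.075) or NSP replicate 2 (-1.10, 0.0944). Mt1 differed by -0.047 ± 0.27 (adjusted p = 0.923).

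Against radial glia, Mt1 and Mt3 were higher in NSP, where 9.23% of all genes were called higher. Mt1 was higher by 1.37 ± 0.27 (adjusted p = 0.00369 in limma), or 2.59-fold (1.72 to 3.90), and the call was lost under scaling to the median of all probes (1.34, adjusted p = 0.11). Mt3 was higher by 1.98 ± 0.51 (adjusted p = 0.0173), or 3.94-fold (1.82 to 8.53). This call was lost without RG replicate 1 (adjusted p = 0.0701), RG replicate 3 (0.0661) or NSP replicate 1 (0.0829), and in the authors' values (1.04, adjusted p = 0.0622). Mt2 had a difference of 1.502 ± 0.50 that just missed the threshold (adjusted p = 0.0554). Without NSP replicate 2 it was 2.12 and was called (adjusted p = 0.00482).

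By mean level Mt1 had the order SC, LVW, NSP and RG, in which only the step from NSP down to RG was called. The order for Mt2 was SC, LVW, NSP and RG, with the step from LVW to NSP called. For Mt3 it was LVW, SC, NSP and RG, with the step from NSP to RG called. The same 3 RG arrays stood at the bottom of each order.

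Whether the genes kept step with each other was tested on the difference of 2 probes within an array. Only its shift between groups can be read, since different probes have different brightness. Mt1 minus Mt2 was 2.51 ± 0.42 in LVW and 2.35 ± 0.16 in SC, but 5.26 ± 0.24 in RG and 5.13 ± 0.85 in NSP (SD, n = 3). The ependymal arrays reached at most 2.98, and the RG and NSP arrays were at 4.59 or more. An exact permutation test of the 4 groups over all 369600 assignments of the arrays gave adjusted p = 0.0061 over the 3 pairs of genes.

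Mt2 minus Mt3 was 3.40 ± 0.24 in SC, 2.31 ± 0.41 in LVW, 1.81 ± 0.24 in RG and 1.34 ± 0.12 in NSP (exact permutation test, adjusted p = 0.000779). Every SC array, at 3.19 or more, was above every array of the other groups, which reached 2.73. In the authors' values RG (0.887) lay under NSP (1.01), and with no background correction RG was at 2.25. The NSP arrays lay between 1.24 and 1.47, with replicate 2 lowest, and in the authors' values replicate 2 was at 0.700 against 1.10 and 1.22. Mt3 on that array was near the limit of detection, with a raw signal of 47.3 and a detection p-value of 0.00312. Mt1 minus Mt3 ran from 4.82 ± 0.78 in LVW through 5.75 ± 0.13 in SC and 6.46 ± 0.78 in NSP to 7.07 ± 0.085 in RG (exact permutation test, adjusted p = 0.0061). In the authors' values RG (5.63) lay under NSP (6.00) in this difference. The 3 genes thus did not change in equal steps between the groups, with the limit that Mt1 was near the top of the signal range.

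**Figure D3:**
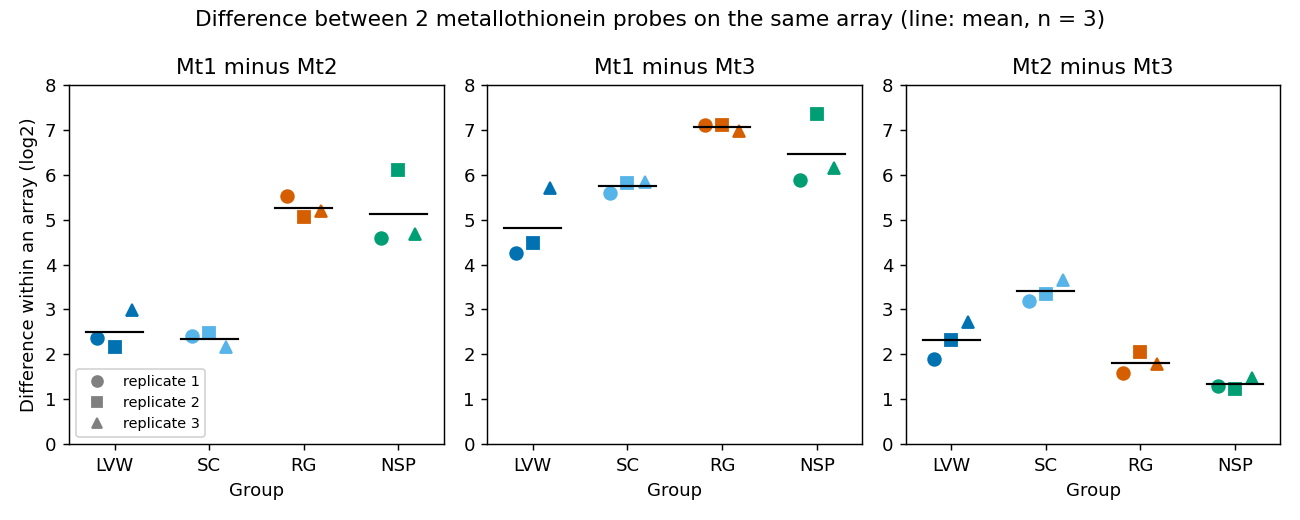
Difference between 2 metallothionein probes on the same array (vertical axis, log2) by group, with a line at the mean (n = 3). Mt1 minus Mt2 lies under 3 in LVW and SC and over 4 in RG and NSP, and Mt2 minus Mt3 is highest in SC.

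Genes that sense and move zinc were read beside the metallothioneins. Of 11 genes for zinc sensing and export 7 were tested, and of 14 zinc importers 9 were. In LVW against RG, 1 of 7 sensing and export genes was higher and 2 were lower, in SC against RG 1 was higher and 1 lower, and in NSP against SC 1 was lower. Of all genes, 36.5% were called in LVW against RG (19.7% lower), 31.8% in SC against RG (17% lower) and 30.2% in NSP against SC (15.5% higher). In SC against LVW, where 3.09% of all genes were called higher and 4.95% lower, 1 was lower. In NSP against RG (20.3% of all genes called) 1 was lower, and in NSP against LVW (33.7% called, 17.3% higher) 1 was higher and 1 lower. List medians lay between -0.33 and 0.61, beside -0.19 to 0.12 for all genes.

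Slc30a1, the zinc exporter of the cell membrane and itself a known target of MTF1, was called in 3 of the 4 comparisons in which Mt2 was called, with the same signs. In the other, NSP against LVW, it differed by -0.90 ± 0.34 and was not called (adjusted p = 0.0628). It was at 11.97 in LVW, 12.50 in SC, 10.53 in RG and 11.06 in NSP. It was higher than RG by 1.44 ± 0.34 in LVW (adjusted p = 0.00657 in limma) and by 1.97 ± 0.34 in SC (adjusted p = 0.000993). In NSP it was lower than in SC by 1.44 ± 0.34 (adjusted p = 0.0084). Of all genes, 16.7% were called higher in LVW and 14.8% in SC against RG, and 14.7% lower in NSP against SC. These comparisons share arrays, and a part of MTF1 in the match was not tested. Mtf1, which encodes MTF1, was lower in LVW than in RG (-1.82 ± 0.47, adjusted p = 0.0103) and detected there on 2 arrays, and in SC it differed from RG by -0.18 ± 0.47 (adjusted p = 0.807). Slc30a10, a manganese exporter of this family, was detected on 0 SC arrays and was at least 2.54-fold lower in SC than in LVW (adjusted p = 0.0138). A bound of this kind sets the higher group's mean against the weakest detected signal of each array of the lower group, or the gene's own signal there if higher.

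Among zinc importers, 2 of 9 were higher and 2 lower in LVW against RG, 1 was higher and 1 lower in SC against RG, and 2 were higher in NSP against RG. In NSP against SC 2 were higher, in NSP against LVW 2 were higher and 2 lower, and in SC against LVW 1 was higher and 2 lower. The list medians lay between -0.35 and 0.70. Slc39a12, a zinc importer of the brain, was at 9.36 in both ependymal groups, 8.85 in NSP and 5.01 in RG, where 1 array detected it. It was higher than RG by 4.35 ± 0.53 in LVW, by 4.36 ± 0.53 in SC and by 3.85 ± 0.53 in NSP (adjusted p = 6.60e-05, 7.44e-05 and 0.000367 in limma).

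Slc39a4, the importer through which the gut absorbs zinc, was led by LVW. It was at 12.66 in LVW and 6.61 in SC, where 2 arrays detected it, and it was lower in SC by 6.05 ± 0.75 (adjusted p = 0.000511 in limma). NSP detected it on 0 arrays and was at least 128-fold lower than LVW (adjusted p = 1.01e-05). The importer Slc39a10 was higher in NSP than in each other group, by 1.36 ± 0.46 over SC (adjusted p = 0.0427), 1.84 ± 0.46 over RG (0.0145) and 2.19 ± 0.46 over LVW (0.0033), where 1 array detected it.

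**Figure D4:**
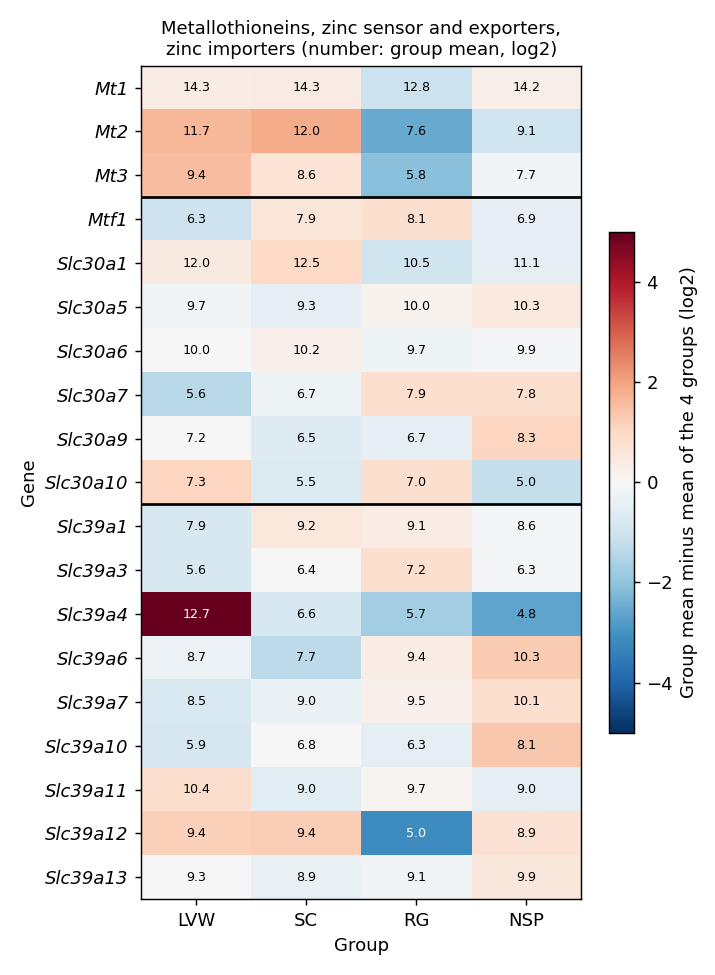
Group mean log2 levels (printed numbers) of the 3 metallothioneins, 7 genes of zinc sensing and export and 9 zinc importers, coloured by the difference from the mean of the 4 groups. Slc39a4 stands out in LVW, and Slc39a12 is low in RG as Mt2 and Mt3 are.

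Of 13 genes for copper handling 11 were tested. They held 2 higher in SC against LVW, 1 higher and 2 lower in LVW against RG, 2 higher and 1 lower in SC against RG, 3 lower in NSP against SC, 1 higher in NSP against RG, and 1 higher and 1 lower in NSP against LVW. The 3 called of 11 in LVW against RG, SC against RG and NSP against SC stand beside 36.5%, 31.8% and 30.2% of all genes called, and the others beside 8.04% in SC against LVW, 20.3% in NSP against RG and 33.7% in NSP against LVW. These shares also stand beside the counts of the zinc importers, iron and glucocorticoid genes. Cp, which encodes the copper-carrying ferroxidase ceruloplasmin, was higher than RG by 4.75 ± 0.36 in LVW, 4.92 ± 0.36 in SC and 5.66 ± 0.36 in NSP. Its adjusted p-values were 1.41e-06, 1.14e-06 and 7.19e-07. RG was thus lowest for Cp as it was for all 3 metallothioneins. Other genes of the list went the other way, and Slc31a1 (11.09), Cox17 (8.74) and Atp7a (7.25) had their highest mean in RG. Commd1 was lower in LVW than in RG (-0.96 ± 0.30, adjusted p = 0.0253 in limma). Atp7a, detected on 0 SC arrays, was at least 2.46-fold lower in SC than in RG (adjusted p = 0.0348).

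Of 12 iron handling genes 10 were tested, and 0 of them were called in SC against LVW or NSP against RG (11.1% of all genes were called lower there). LVW against RG gave 2 higher and 2 lower, SC against RG 1 higher and 2 lower, NSP against SC 3 higher and 1 lower, and NSP against LVW 4 higher and 1 lower. Slc11a2, which imports iron and other divalent metals, was higher than RG by 2.37 ± 0.52 in LVW and 2.25 ± 0.52 in SC (adjusted p = 0.00389 and 0.00583 in limma). In NSP it was lower than in SC by 2.36 ± 0.52 (adjusted p = 0.00502). Tfrc, the receptor for iron-laden transferrin, was higher in NSP than in SC by 2.88 ± 0.62 (adjusted p = 0.00457).

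Genes of oxidative stress defence and of the glucocorticoid response were read because both stimuli are known to induce Mt1 and Mt2. Of 17 genes of glutathione and oxidative stress defence 13 were tested, with 5 higher and 1 lower in LVW against RG, 1 higher and 1 lower in SC against RG, and 5 higher in NSP against SC. NSP against RG gave 3 higher, NSP against LVW 1 higher and SC against LVW 2 lower. The shares of all genes called higher were 16.7% in LVW against RG, 14.8% in SC against RG, 15.5% in NSP against SC, 9.23% in NSP against RG and 17.3% in NSP against LVW. The shares of all genes called lower were 19.7% in LVW against RG, 17% in SC against RG and 4.95% in SC against LVW. They were 14.7% in NSP against SC, 11.1% in NSP against RG and 16.4% in NSP against LVW. In these 3 comparisons of NSP, 0 of the 13 were lower. Gclm, a subunit of the enzyme that limits glutathione synthesis, was higher than RG by 2.13 ± 0.50 in LVW (adjusted p = 0.00556) and 1.73 ± 0.50 in NSP (0.0283). Gpx1, which reduces peroxides with glutathione, was lower than RG by 2.00 ± 0.45 in LVW and 2.91 ± 0.45 in SC (adjusted p = 0.00435 and 0.000401).

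Of 10 glucocorticoid response genes 6 were tested. LVW against RG gave 1 higher and 2 lower, SC against RG 1 higher and 1 lower, NSP against SC 1 higher, NSP against RG 1 higher, NSP against LVW 2 higher and 1 lower, and SC against LVW 1 higher. Klf9, a transcription factor induced by glucocorticoid and thyroid hormone, was higher than RG by 3.85 ± 0.78 in LVW, 3.76 ± 0.78 in SC and 5.11 ± 0.78 in NSP (adjusted p = 0.00245, 0.00313 and 0.000727). Fkbp5, a chaperone partner of the glucocorticoid receptor, was lower in LVW (-2.93 ± 0.60) and SC (-3.19 ± 0.60) than in RG, where each ependymal group detected it on 1 array. In NSP Fkbp5 was higher than in SC by 3.23 ± 0.60 (adjusted p = 0.00172 in limma).

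Astrocytes are a known source of metallothionein, so their markers were read as well. Of 12 markers 11 were tested, and their summed signal (linear scale, normalised) lay between 7993 and 11295 in RG, 16047 and 26759 in SC, 27566 and 38253 in LVW, and 29142 and 48921 in NSP. Against RG, 6 of 11 were higher in LVW, 5 in SC and 7 in NSP, and 0 were lower, beside 16.7%, 14.8% and 9.23% of all genes called higher. Aqp4, Gfap, Gjb6, Ntsr2 and Slc6a11 were detected on 0 RG arrays. Slc6a11 was also detected on 0 LVW arrays, and Gjb6 on only 1 LVW and 1 NSP array. Aldoc had a higher mean in RG (12.07) than in LVW (11.71) or SC (11.52), and its mean in NSP was 12.86. Gfap was detected on 0 NSP arrays and on all 3 of LVW and of SC. In NSP against SC, where Mt2 was lower, 2 of the 11 astrocyte markers were higher and 1 lower, beside 15.5% and 14.7% of all genes. The part of these cells in the metallothionein differences was not tested.

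Other cells of the tissue were uneven too. The summed signal of 6 oligodendrocyte markers was 1700 to 21707 in SC, 4908 to 12457 in LVW, 497 to 663 in RG and 367 to 579 in NSP. SC replicate 1 was the low array there. For 6 choroid plexus markers the sum was 17101 to 23595 in RG, 4011 to 6526 in LVW, 1152 to 1728 in SC and 179 to 263 in NSP. Ttr, the transthyretin gene, carried most of it in RG (13.84) and was detected on 0 arrays of the other groups. Clic6 was at 11.63 in LVW, 11.51 in RG and 6.27 in SC, and Otx2 and Sostdc1 were detected on 0 SC arrays. Folr1, however, was at 9.73 in SC, 9.57 in LVW and 8.11 in RG. Aqp1 was likewise highest in SC (8.51), with 6.82 in LVW and 6.96 in RG. For 8 endothelial and mural markers the sum was 18322 to 23530 in LVW, 8036 to 9439 in SC, 13078 to 20040 in RG and 4123 to 19311 in NSP. Acta2, a smooth muscle actin, made up most of it in LVW (14.21). The pericyte genes Kcnj8 (12.36), Pdgfrb (11.79) and Rgs5 (11.42) were detected on all 3 RG arrays, and elsewhere only Pdgfrb was, on 1 LVW array. The sum of 8 neuron markers was 3866 to 4011 in RG and 342 to 504 in LVW. It was 616 to 983 in SC and 694 to 1091 in NSP. The sum of 6 dividing cell markers was 12299 to 12528 in RG, 3183 to 8400 in NSP and 160 to 305 in LVW. In SC it was 663 to 1153. The part of these cells in the results was not tested either. Of 8 microglia and leukocyte markers 1 was tested.

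The genes most like each metallothionein were named by the Pearson correlation of log2 levels over the 12 arrays, which describes 4 clusters of 3 arrays and carries no test. Mt1 was most like Slc25a18, a mitochondrial glutamate carrier (r = 0.993), Ank, which exports pyrophosphate (0.978), and Plekhb1 (0.975). Slc25a18 was at 12.90 in LVW, 13.05 in SC, 6.18 in RG and 12.59 in NSP, lowest in RG as Mt1 was. Mt2 was most like Macrod1 (0.991), Il6st, the shared receptor subunit of the interleukin 6 family (0.984), and Tspan15 (0.980). Il6st was at 10.71 in LVW, 10.93 in SC, 8.36 in RG and 9.19 in NSP.

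Mt3 was most like Oplah, an enzyme of the glutathione cycle (0.970), Ucma (0.967) and Pamr1 (0.958). Oplah was at 10.70 in LVW, 9.88 in SC, 7.27 in RG and 9.20 in NSP, the same order as Mt3. The members themselves correlated at 0.923 for Mt2 with Mt3, 0.875 for Mt1 with Mt3 and 0.817 for Mt1 with Mt2. Among the 9525 other genes, Mt3 ranked 96th and Mt1 637th in likeness to Mt2. In the other direction, Mt2 ranked 23rd in likeness to Mt3 and 189th in likeness to Mt1. Mt1 and Mt2, whose windows lie closest on the chromosome, were the least alike pair of the 3 in this measure. Mt1 was near the top of the signal range in LVW, SC and NSP, which limits how far its level could vary there. The part of this limit in its correlations was not tested. How alike the window sequences are was not computed.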

How the data were processed

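Biotin label was added to RNA after 2 rounds of amplification, per the labels' protocols. The submitters' processing notes list BeadStudio and lumi with no version. The raw table as deposited has, per the file headers, a signal intensity and a detection p-value for each of 46632 probes on each of 12 arrays, and some intensities are below 0. The authors' deposited log2 values were quantile normalised between arrays, as their identical sorted values show, and 2 probes were empty there.

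The intensities were background corrected with neqc (limma 3.58.1, R 4.3.3), with negative controls inferred from detection p-values and an offset of 16, quantile normalised and taken to log2. Probes detected at p under 0.01 on at least 3 of 12 arrays were kept (15760), and where a gene had several, the brightest on average stood for it. A 4-group linear model (lmFit, eBayes, two-sided) on all 12 arrays gave 6 comparisons. The 3 arrays per group limit the precision. The method was tested on simulated data.

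Members and lists were chosen with earlier results of these data known. From each list up to 2 called genes per direction and comparison could be named, those with the largest changes, no overlap between groups and detection throughout the higher group, and per member the 3 genes of highest correlation. Foxj1, Rsph1, Tekt1 and the other cell type markers named singly were added after their values were seen. Probe sequences were not used here, so cross-hybridisation between metallothionein probes was not tested.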

Additional observations from a re-analysis of the deposited data

How the results depend on the processing

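Over 24 alternatives, 405 of 432 recomputed changes of the 3 genes kept their sign and their side of the threshold, 14 lost a call, 4 gained a call and 9 turned in sign, none of the last a called change. Some of these alternatives left each change as it was and could move only its p-value, so their signs were fixed in advance. They were the other probe filters, the other treatments of several probes per gene, the replicate number as a block and the fit to 6 arrays. Scaling to the median of all probes lost the calls of Mt1 against RG in LVW (1.09), SC (0.84) and NSP (1.34), of Mt3 in NSP against RG (1.61, adjusted p = 0.101) and of Mt3 in NSP against LVW (-1.64). It turned the uncalled changes of Mt1 (-0.25) and Mt2 (-0.15) in SC against LVW and of Mt1 in NSP against SC (0.50) and LVW (0.25). Scaling to the median of the kept probes, chosen after this was seen, kept every Mt1 call against RG, turned Mt1 in NSP against SC (0.17) and LVW (0.22), and called Mt2 in NSP against RG (1.57). The authors' values lost Mt3 in NSP against RG (1.04). The Mt3 call in NSP against LVW was lost at -1.69 both without a probe filter and in a fit to 6 arrays. Array weights, whose fit stopped before its tolerance, called Mt3 in NSP against SC (-1.20) and Mt2 in NSP against RG (1.17).

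With 1 array left out in turn, values ran from -0.052 to 0.40 for Mt2 in SC against LVW, -0.18 to 0.034 for Mt1 and -1.15 to -0.23 for Mt3 in NSP against SC, -0.13 to 0.091 for Mt1 in NSP against LVW, 1.18 to 2.12 for Mt2 and 1.66 to 2.57 for Mt3 in NSP against RG, and -2.16 to -1.10 for Mt3 in NSP against LVW. Replicate numbers are not stated to pair arrays: same-numbered arrays correlated between -0.23 and 0.32 in their deviations, over 0.1 in 3 of 18 pairs. With the replicate number as a block, Mt2 in NSP against SC was -2.88 and no call of the 3 genes changed. Genes called in SC against LVW were 766, but 292 in a fit to 6 arrays, 484 under scaling to the median of all probes, and 475 to 995 with 1 array left out (fewest without LVW replicate 1, SC replicate 2 or SC replicate 3). In NSP against RG they were 1933, but 4123 with array weights and 1147 to 2828 with 1 array left out (fewest without RG replicate 1, RG replicate 3 or NSP replicate 1). In SC against RG they were 3033 and 4969 with array weights, and in NSP against LVW 3210 and 2001 in a fit to 6 arrays. Of 864 recomputed list counts, 176 moved by over 1.5 times. The unequal change of Mt1 and Mt3 had F = 9.11 and, in the authors' values, 5.001 (exact permutation test, adjusted p = 0.0215). Mt3 in RG was close to the limit of detection.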

Other observations

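Neurosphere replicates 1 and 2 were the most alike pair of arrays within a group over the 9526 genes (r = 0.973). Between them Mt2 differed by 1.89 and Mt3 by 1.82 on the log2 scale, and only 1.21% and 1.46% of all genes differed by more. Replicates 1 and 3, which correlated less closely (r = 0.895), differed by 0.01 in Mt2 and 0.17 in Mt3. This pattern was noticed in the data and was not tested.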
